A study of Mus musculus with 15 samples.

Results

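The genes described here are 33 members of the TGF-beta and BMP signalling pathway, chosen by name: 11 ligands, 10 receptors, 8 Smads and 4 antagonists. A single-gene probe set was found for 32 of them among 18193 genes, and Bmp3 had none. Each gene was read by its brightest probe set, the one with the highest mean over all arrays. A probe set is a group of short probes that bind one transcript, and its deposited value is a log2 expression value, so a difference of 1 is a doubling. The values came from 15 untreated mouse cell lines grown in the same serum-supplemented DMEM medium, each on 1 array. By genotype label 3 lines were AP and 12 were AKP. The labels do not spell out these letters, and they give no tissue, strain, age, Cre driver or clonality. The line AKP 6 was labelled adenoma and the remaining lines tumour, and 10 lines were labelled female and 5 male. A pair number was given in the labels of AP 1 and of AKP 6 to AKP 12, and its meaning is not stated.

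TGF-beta and activin ligands bind a pair of type II and type I receptor kinases, which phosphorylate Smad2 and Smad3. BMP ligands act through Bmpr2 or an activin type II receptor with Bmpr1a, Bmpr1b or Acvr1, and phosphorylate Smad1, Smad5 and Smad9. Both branches share Smad4 as partner, Smad6 and Smad7 inhibit them, and secreted proteins such as gremlin 1, noggin, chordin and follistatin trap ligands outside the cell. In epithelia the TGF-beta branch is known for restraining proliferation and, in other settings, for promoting mesenchymal traits.

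Among the lines, AP 1 and AKP 1 stood apart, since their correlations with the remaining lines over all genes had the lowest medians, 0.892 and 0.922. Krt18, a keratin of simple epithelia, had levels of 3.62 in AP 1, 8.93 in AKP 8 and 10.82 in AKP 1 and of 14.01 or more in the remaining lines. Other epithelial markers ordered the lines differently. The median level of 16 such markers was lowest in AP 1, AKP 1 and AKP 10, at 2.91, 3.17 and 3.87, and lay at 6.03 in AKP 8. Epcam, by contrast, was highest in AP 1 and AP 3, at 9.82 and 9.79, and lay at 9.31 in AKP 1 and 9.28 in AKP 8. Its range over the lines was 1.71. The median level of 18 fibroblast and smooth muscle markers was highest in AP 1 and AKP 1, at 12.87 and 11.57. In the other AP lines that median was 5.78 and 6.91, and in the other AKP lines it ran from 3.13 to 7.54, with 7.54 in AKP 8. Of the markers of blood and endothelial cells, Ptprc lay at 3.10 or lower and Pecam1 at 3.40 or lower in every line, whereas Cd14 lay between 8.66 and 12.67, Cd68 reached 10.94, Flt1 reached 11.39, and Eng lay at 10.11 in AP 1 and 10.04 in AKP 1. The lines labelled female as AP 3 and AKP 11 carried the Y-linked transcript Eif2s3y, at 8.47 and 12.71, with Xist at 3.21 and 2.67, and AKP 2 and AKP 5 had both at 3.24 or lower. Among the members, leaving out AP 1 and AKP 1 together changed the calls of Tgfb2 and Acvr1, whose values are given both ways. In such bulk samples fewer cells of a type and less RNA per cell cannot be told apart. The labels name different lines but not their animals, so p-values measure only the spread between these lines.

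The promoters of Tgfb2, Inhbb, Bmp4 and Grem1 are printed because these 4 members varied by at least 7.57 on the log2 scale between the lowest and the highest line and have an entry in the RefSeq promoter table of GRCm38.p6, which covers 23 of the 32 genes. Each sequence is the 250 bases before the annotated transcription start, 5′ to 3′ on the gene's strand, which is minus for all 4. Tgfb2 lies at chr1:186705990-186706239, Inhbb at chr1:119422249-119422498, Bmp4 at chr14:46390670-46390919 and Grem1 at chr2:113758649-113758898. Capitals mark motif matches on either strand.
Tgfb2: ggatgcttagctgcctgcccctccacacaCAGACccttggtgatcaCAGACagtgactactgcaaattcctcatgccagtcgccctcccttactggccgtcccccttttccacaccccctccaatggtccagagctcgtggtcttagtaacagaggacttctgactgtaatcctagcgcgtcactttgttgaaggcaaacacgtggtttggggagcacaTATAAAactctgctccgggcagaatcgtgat
Inhbb: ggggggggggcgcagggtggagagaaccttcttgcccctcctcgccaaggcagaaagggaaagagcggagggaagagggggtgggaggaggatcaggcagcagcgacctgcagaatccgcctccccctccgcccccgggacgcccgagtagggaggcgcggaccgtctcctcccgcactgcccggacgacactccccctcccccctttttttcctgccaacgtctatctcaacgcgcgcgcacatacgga
Bmp4: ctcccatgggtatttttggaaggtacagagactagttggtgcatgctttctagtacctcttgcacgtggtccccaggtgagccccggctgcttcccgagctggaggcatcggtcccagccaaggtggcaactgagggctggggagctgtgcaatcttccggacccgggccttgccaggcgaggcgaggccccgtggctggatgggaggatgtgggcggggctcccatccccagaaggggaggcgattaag
Grem1: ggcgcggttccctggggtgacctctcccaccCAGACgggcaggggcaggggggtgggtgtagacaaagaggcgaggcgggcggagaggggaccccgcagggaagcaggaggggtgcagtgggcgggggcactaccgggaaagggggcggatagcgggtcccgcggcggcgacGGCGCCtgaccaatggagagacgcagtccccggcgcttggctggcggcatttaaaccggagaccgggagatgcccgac
The motifs searched were the short Smad-binding element CAGAC, the palindrome GTCTAGAC, the GC-rich Smad element GGCGCC, the cyclic AMP response element TGACGTCA, the AP-1 element TGANTCA and the TATA box TATAAA. No other motif searched contains CAGAC. The Tgfb2 promoter holds CAGAC 2 times and TATAAA 1 time, the latter starting 31 bases before the transcription start. Grem1 holds CAGAC 1 time and GGCGCC 1 time, and the windows of Inhbb and Bmp4 hold none of the 6 motifs. Of all 32841 promoters in the table, 42.2% held CAGAC, 9.59% GGCGCC and 12.4% TATAAA, against 8, 6 and 3 of the 23 member genes. GTCTAGAC, TGACGTCA and TGANTCA were found in 0.167%, 1.55% and 6.75% of all promoters and in 0 of the 23. These matches are letters in a window and describe no binding.

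Within the pathway, the Smads other than Smad6 and 6 of 10 receptors varied by less than 3 log2 units over the lines, while several ligands, the coreceptor gene Tgfbr3 and the antagonist gene Grem1 differed by more than 7 log2 units from line to line. By the limits of a highest line of at least 8 and a range of at least 3, 12 of 32 members varied widely, namely 6 ligands, 3 receptors, 1 Smad and 2 antagonists. The same limits were met by 20.2% of all 18193 genes. Bright genes meet the limit on the highest line more readily, and 21 of 32 members lay at or above the 60th percentile of all genes. Genes of like level were not compared. The median range over the lines was 5.58 for ligands, 5.25 for antagonists, 2.59 for receptors and 1.46 for Smads. Nog (range 5.31), Acvr2b (5.15), Bmp6 (4.62) and Chrd (3.96) ranged as far but their highest line stayed below 8. Just inside the limit on range lay Tgfb1 at 3.28 and just outside it Inhba at 2.84.

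**Figure D1:**
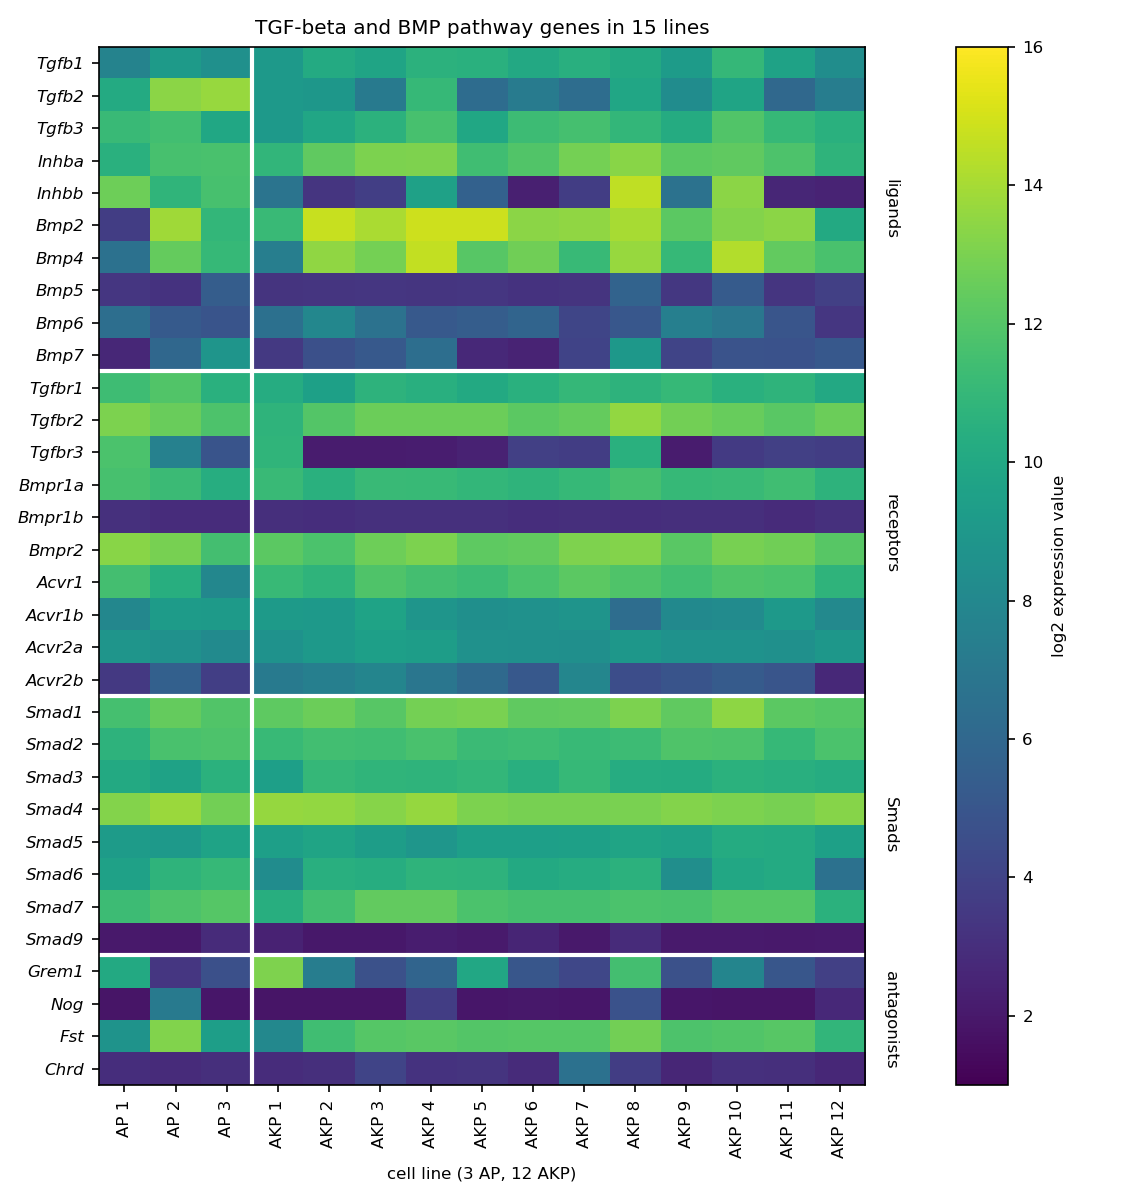
Log2 expression value (colour) of the 32 measured members (rows, grouped by role) in each of the 15 cell lines (columns; a white line parts the 3 AP from the 12 AKP lines). Most Smads and receptors vary little across a row, whereas Inhbb, Bmp2, Bmp4, Tgfbr3 and Grem1 change from line to line.

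Which members go with the genotype label is the question of the next comparison. Limma called 0 of 32 members at an adjusted p under 0.05 over all genes, where 345 of 18193 genes (1.9%) passed, 0.792% higher and 1.1% lower in AKP. The groups overlapped in every member, while 2.13% of all genes did not overlap. At an unadjusted p under 0.05 there were 6 members, Tgfb2, Tgfb1, Acvr1, Tgfbr1, Bmp2 and Inhbb, where 16.5% of all genes passed that limit. Of the 32 members, 16 had the higher mean in AKP, and the median difference was -0.01, beside 0.01 over all genes. The call of 0 members depended on single lines. Limma called Tgfb2 and Acvr1 when AP 1 was left out, Bmp2 when AP 2 was, and Tgfb2 when AKP 1, AKP 4 or AKP 8 was.

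**Figure D2:**
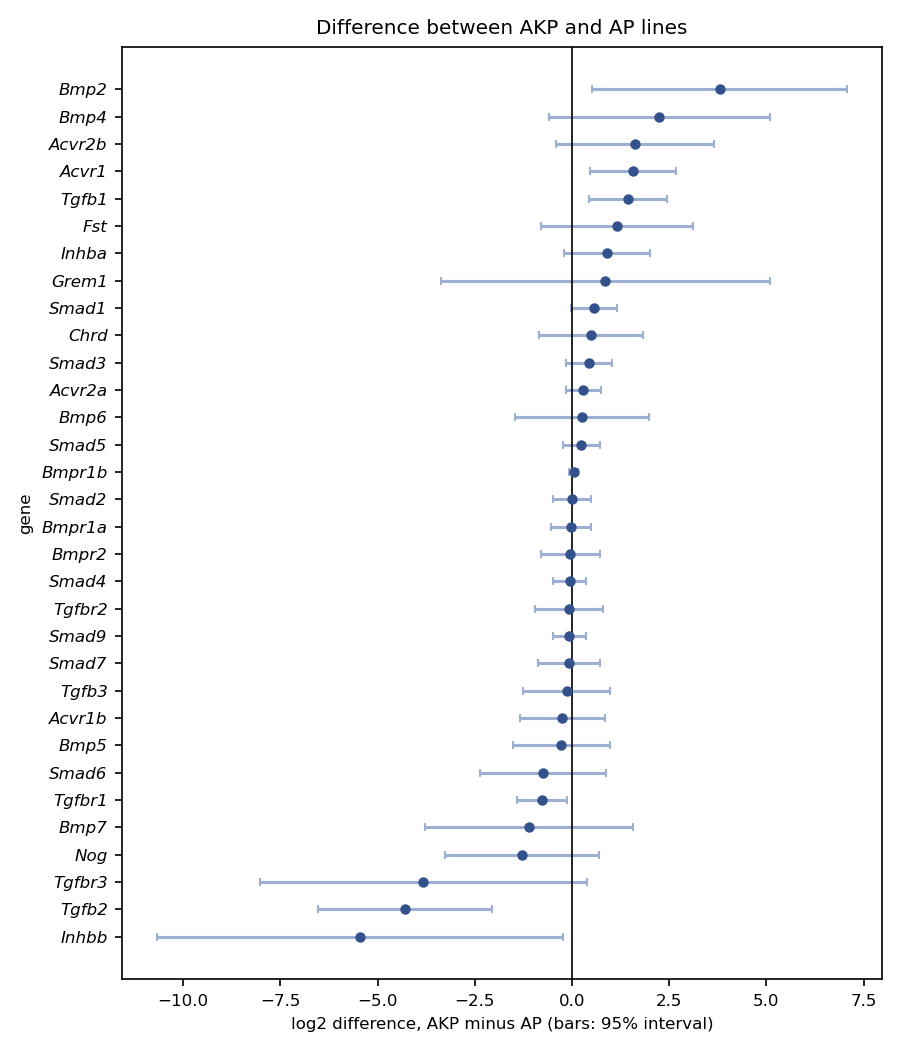
Log2 difference of each member between the means of the 12 AKP and the 3 AP lines (points) with its 95% interval from limma (bars), not adjusted for the number of genes; values right of 0 are higher in AKP. Inhbb, Tgfb2 and Tgfbr3 lie farthest to the left at -5.46, -4.29 and -3.82, and Bmp2 farthest to the right at 3.80.

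Tgfb2, one of the 3 TGF-beta ligand genes, came closest to the threshold. Its level was 10.20 in AP 1, 13.41 in AP 2 and 13.66 in AP 3, while the AKP lines had 6.10 at the lowest, 7.83 at the median and 11.03 at the highest. AP 2 and AP 3 were above every AKP line, and AKP 4 was the only AKP line above AP 1. The difference between the means of 12.42 ± 1.93 (SD, n = 3) and 8.13 ± 1.62 (SD, n = 12) was -4.29 ± 1.04 (SE; limma adjusted p = 0.0521). Without AP 1 and AKP 1 the difference was -5.49 (limma adjusted p = 0.0284). Over all 28 alternatives it ran from -5.49 to -3.67, with limma adjusted p between 0.0279 and 0.451 and 8 of 28 under the threshold. The other 3 probe sets of Tgfb2 followed the same lines, with differences of -3.40 to -3.98, and correlated with the one used at 0.96 to 0.99 over the 15 lines, which share the arrays and the RNA.

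**Figure D3:**
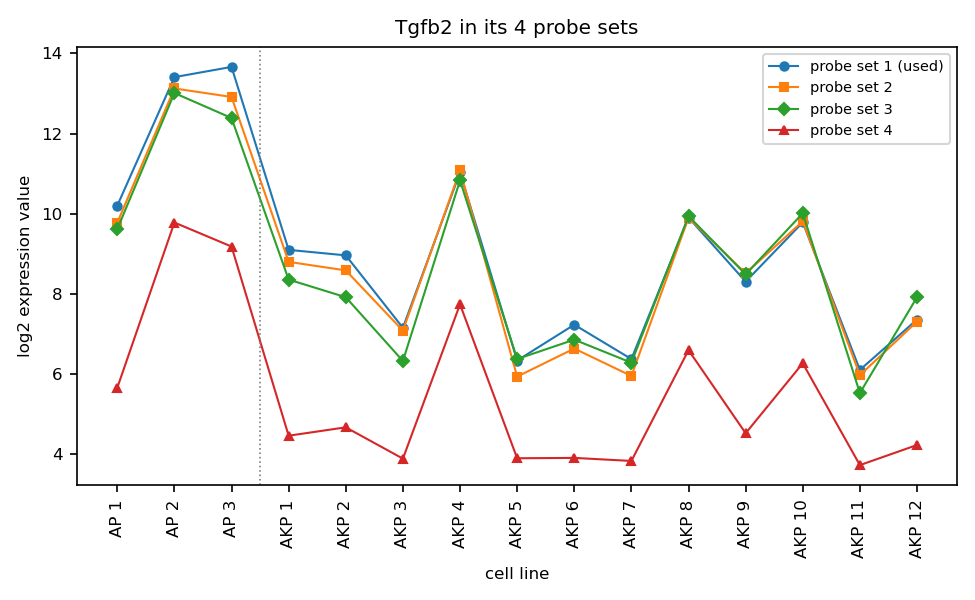
Log2 expression value (vertical axis) of the 4 probe sets of Tgfb2 in each cell line (horizontal axis); the dotted line parts AP from AKP lines. All 4 are highest in AP 2 and AP 3, and the dimmest lies below the other 3 in every line.

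The other TGF-beta genes differed less. Tgfb1, the most widely expressed TGF-beta ligand gene, lay at 7.68, 9.19 and 8.54 in AP 1 to AP 3, and in AKP at 8.34, 10.08 and 10.96 for the lowest, median and highest line. Of the AKP lines, 10 were above every AP line, AKP 1 and AKP 12 lay within the AP range, and the difference was 1.44 ± 0.47 (SE; limma adjusted p = 0.144). Tgfb3 lay between 9.14 and 11.94 in all lines, with means of 10.87 in AP and 10.73 in AKP.

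The activin subunit genes behaved differently from each other. Inhba, whose product forms activin A, lay between 10.51 and 13.35 in all lines, with a difference of 0.90 ± 0.52 (SE; limma adjusted p = 0.415). Inhbb, the subunit of activin B, had the widest range of all members. It lay at 12.69, 10.80 and 11.61 in AP 1 to AP 3, and in AKP at 2.30, 4.73 and 14.57 for the lowest, median and highest line. AKP 8 (14.57) and AKP 10 (13.39) were above every AP line, and the 10 other AKP lines were below every AP line. The SD of 4.23 among AKP lines went with a difference of -5.46 ± 2.43 (SE; limma adjusted p = 0.28). Its second, dimmer probe set had a difference of -1.43 ± 1.49, and AP 2 and AP 3 lay at 2.14 and 3.27 there.

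Bmp2 and Bmp4, closely related BMP ligand genes, were both lowest in AP 1. Bmp2 lay at 3.71 in AP 1, 13.86 in AP 2 and 10.93 in AP 3, against 10.13, 13.45 and 14.87 for the lowest, median and highest AKP line. Bmp4 lay at 6.61, 12.48 and 11.04 in AP 1 to AP 3, against 7.42, 12.57 and 14.60 in AKP. The AKP line with the lowest value was AKP 12 for Bmp2 and AKP 1 for Bmp4. The differences were 3.80 ± 1.53 for Bmp2 (SE; limma adjusted p = 0.238) and 2.25 ± 1.33 for Bmp4 (SE; limma adjusted p = 0.434). Without AP 1 they were 0.90 and 0.53, so most of both rested on that line. Without AP 2 the difference of Bmp2 was 5.98 (limma adjusted p = 0.0498).

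The remaining BMP ligand genes were low in most lines. Bmp7 lay at 2.67, 6.03 and 8.82 in AP 1 to AP 3, and in AKP at 2.49, 4.72 and 9.03 for the lowest, median and highest line. AP 3 and AKP 8 were the high lines, and its difference was -1.11 ± 1.25 (SE; limma adjusted p = 0.722), which ran from -2.69 without AP 1 to 0.39 without AP 3. Bmp5 stayed between 3.18 and 3.86 in 12 lines and lay at 5.43 in AP 3, 5.76 in AKP 8 and 5.28 in AKP 10. Bmp6 lay between 3.34 and 7.96, with the highest value in AKP 2. The other probe sets of Bmp7 lay at 10.19 and 8.74 in AP 3, with differences of -2.15 and -1.44. The table carries no detection calls, so the lowest values of these genes cannot be told from background.

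**Figure D4:**
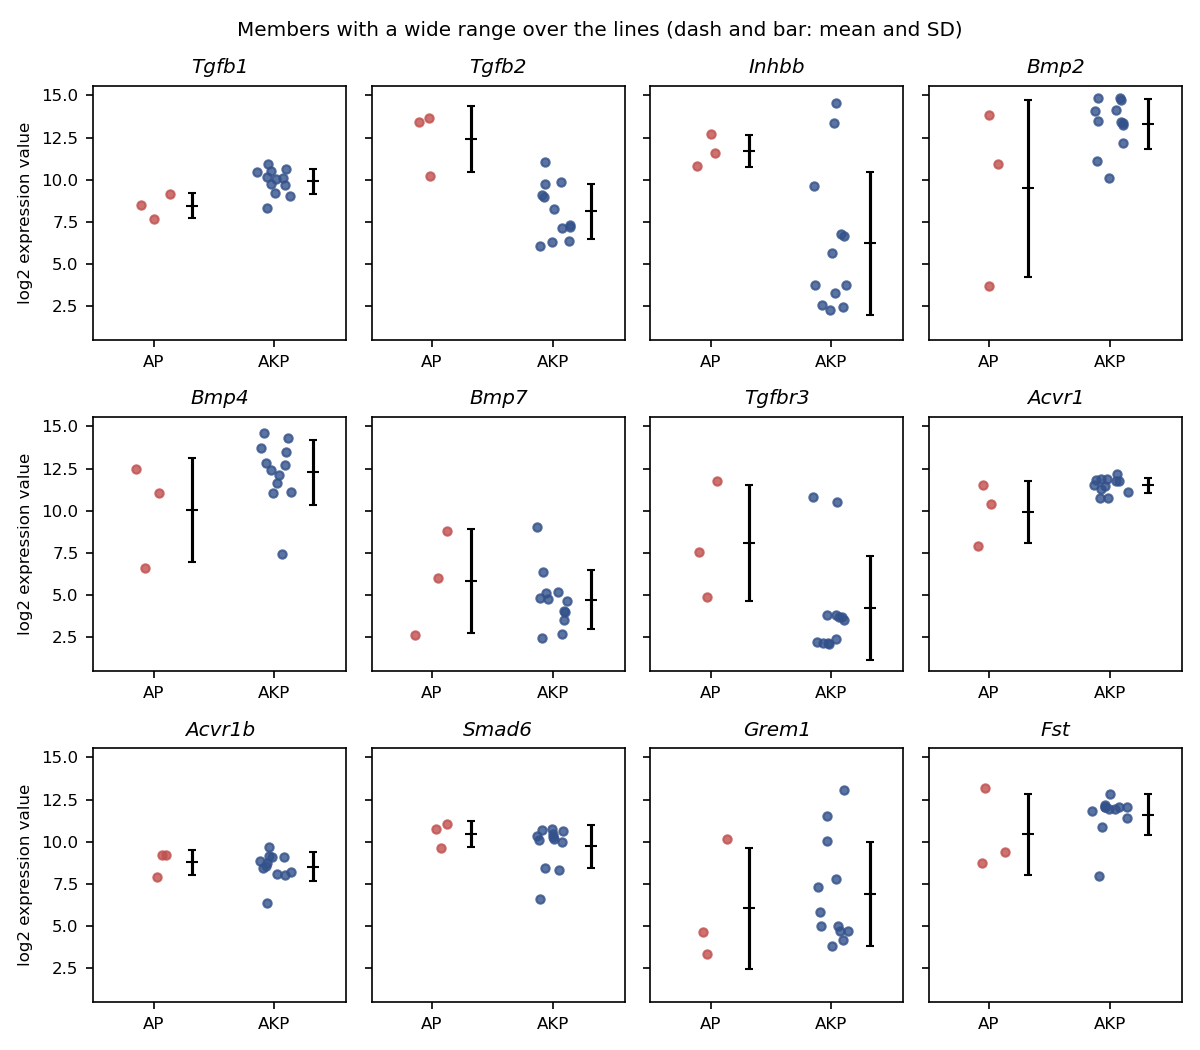
Log2 expression value of the 12 widely varying members (panels) in the 3 AP and 12 AKP lines (points); the dash and bar beside each group give its mean and SD. The AKP points of Inhbb reach from 2.30 to 14.57, and those of Acvr1 from 10.78 to 12.20.

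Tgfbr2, the type II receptor that binds TGF-beta, lay between 10.74 and 13.55, and the AP mean of 12.49 ± 0.61 (SD, n = 3) stood beside an AKP mean of 12.41 ± 0.65 (SD, n = 12). Its difference had a 95% interval of -0.94 to 0.79, and its other 2 probe sets gave 0.76 and 0.12. Tgfbr1, its type I partner, had a difference of -0.77 ± 0.30 (SE; limma adjusted p = 0.223), and 5 of 12 AKP lines were below every AP line. The other probe sets of Tgfbr1 gave -0.26 and 0.53. Bmpr1a and Bmpr2, which bind BMPs, had differences of -0.03 and -0.04, with intervals of -0.55 to 0.49 and -0.80 to 0.72. The other 2 probe sets of Bmpr2, both dimmer, gave 0.92 and -0.95. Acvr2a, an activin type II receptor gene, differed by 0.29 ± 0.21. Acvr2b, its relative, spanned 3.50 to 5.60 in AP and 2.73 to 7.87 in AKP lines, and the means differed by 1.62 ± 0.95 (SE; limma adjusted p = 0.429). Bmpr1b did not exceed 3.10 in any line.

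Acvr1, a type I receptor of the BMP branch, was the receptor nearest to the threshold. It lay at 11.51, 10.41 and 7.93 in AP 1 to AP 3, and in AKP at 10.78, 11.63 and 12.20 for the lowest, median and highest line. All 12 AKP lines were above AP 2 and AP 3, while AP 1 lay among them. The difference was 1.57 ± 0.52 (SE; limma adjusted p = 0.147), and 2.39 (limma adjusted p = 0.0272) without AP 1 and AKP 1. Without AP 3 it was 0.56. A second probe set differed by 1.07 ± 0.39. Acvr1b, the type I receptor of activin, had 7.94, 9.21 and 9.20 in AP 1 to AP 3 against 6.38, 8.65 and 9.70 for the lowest, median and highest AKP line. Its lowest value was in AKP 8, with a difference of -0.25 ± 0.51.

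Tgfbr3, or betaglycan, is a coreceptor that presents TGF-beta and inhibin. It lay at 11.76, 7.57 and 4.92 in AP 1 to AP 3, and in AKP at 2.14, 3.62 and 10.80 for the lowest, median and highest line. AKP 1 (10.80) and AKP 8 (10.54) were high, and the 10 other AKP lines lay at 3.84 or lower and below every AP line. With all lines the difference was -3.82 ± 1.96 (SE; limma adjusted p = 0.353). It was -1.99 without AP 1 (limma adjusted p = 0.679) and -2.58 without AP 1 and AKP 1 (limma adjusted p = 0.468). Tgfbr3 was the only member among the 501 entries of the authors' deposited table, which gives means of 2.98 in AKP and 8.08 in AP, a difference of -5.11 and a step-up p of 0.0342. The mean of the 10 AKP lines without AKP 1 and AKP 8 was 2.98 here as well. With those 10 lines limma gave -5.11 (adjusted p = 0.0195). AP 1, AKP 1 and AKP 8 were also the 3 lines with the highest median level of the fibroblast and smooth muscle markers, 12.87, 11.57 and 7.54. The part of those markers in this difference was not tested. The second probe set of Tgfbr3 lay between 2.44 and 2.68 in all lines.

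The Smad genes had the smallest median range of the 4 roles. Smad4, the shared partner of both branches, lay between 12.79 and 13.75, with a difference of -0.06 and a 95% interval of -0.49 to 0.37. Smad2 and Smad3, which carry the TGF-beta signal, lay between 10.69 and 11.86 and between 9.49 and 11.06. Their differences were 0.01 ± 0.23 and 0.43 ± 0.28. The second probe set of Smad2 gave -0.94 ± 0.56, and the others of Smad3 gave 1.33 ± 0.57 and 0.67 ± 0.28, none of them called. Smad1 and Smad5, which carry the BMP signal, differed by 0.57 ± 0.27 (SE; limma adjusted p = 0.322) and 0.24 ± 0.22. One further probe set of Smad5 differed by 1.62 ± 0.41, which did not pass either (limma adjusted p = 0.0693 over 34945 probe sets, of which 1.65% passed). Smad9 stayed at or below 2.85 in all lines.

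Of the inhibitory Smads, Smad7 lay between 10.38 and 12.40, lowest in AKP 1. Smad6, which acts mainly on the BMP branch, had 9.61, 10.78 and 11.07 in AP 1 to AP 3, and 6.62, 10.23 and 10.78 for the lowest, median and highest AKP line. Below every AP line were 3 AKP lines, AKP 1 at 8.32, AKP 9 at 8.42 and AKP 12 at 6.62. The difference of Smad6 was -0.74 ± 0.76 (SE; limma adjusted p = 0.689).

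Among the antagonists, Grem1, which binds BMP2 and BMP4, lay at 10.14, 3.38 and 4.68 in AP 1 to AP 3. In AKP its lowest, median and highest values were 3.84, 5.43 and 13.07. The high lines were AKP 1 (13.07), AKP 8 (11.51), AP 1 and AKP 5 (10.02), and the difference between the groups was 0.86 ± 1.97 (SE; limma adjusted p = 0.874). That difference ran from -0.48 without AP 2 to 2.90 without AP 1. The lines AP 1 and AKP 1, with high Grem1, had the 2 lowest Bmp4 values, whereas AKP 8 and AKP 5, also high in Grem1, had Bmp4 at 13.71 and 12.10. Fst, or follistatin, which binds activin, had 8.73, 13.18 and 9.42 in AP 1 to AP 3, and 7.99, 12.01 and 12.82 for the lowest, median and highest AKP line. Its low lines were AKP 1, AP 1 and AP 3, and its difference was 1.16 ± 0.91 (SE; limma adjusted p = 0.582), which ran from 0.30 without AP 1 to 2.53 without AP 2. Nog lay at 7.14 in AP 2, 4.76 in AKP 8 and 3.75 in AKP 4, and at 2.74 or lower elsewhere. Chrd exceeded 4.08 only in AKP 7, at 6.58.

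**Figure D5:**
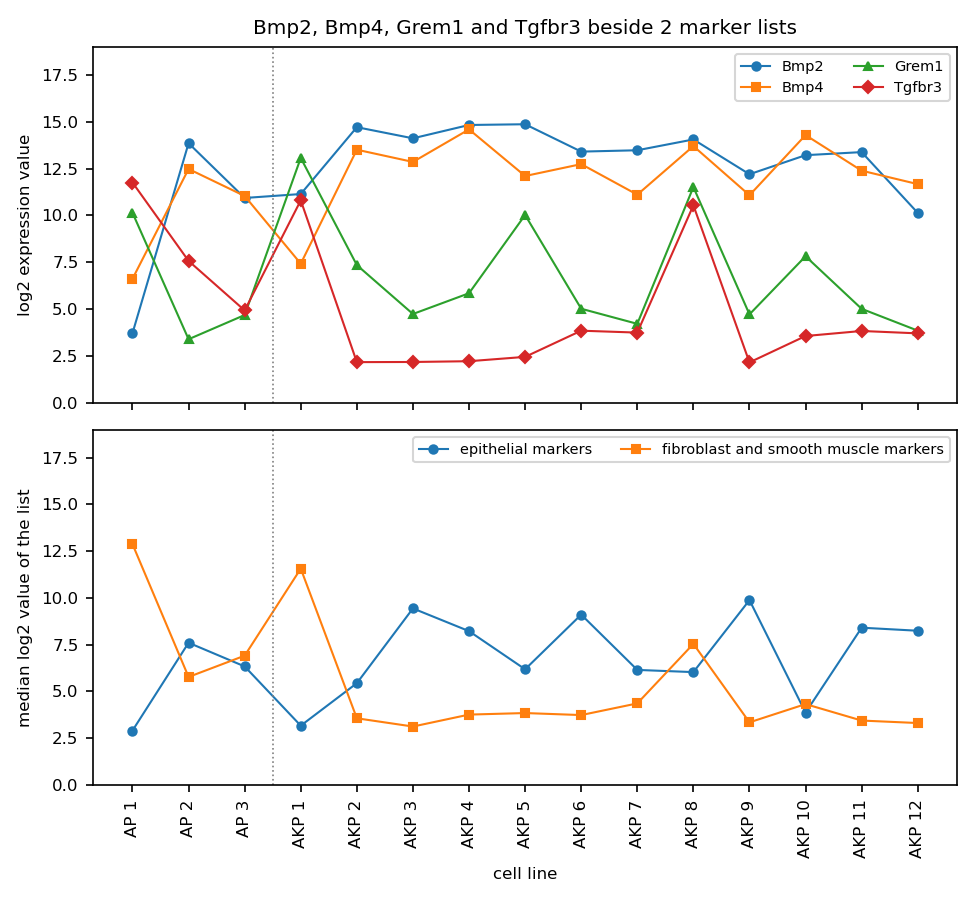
Top, log2 expression values of Bmp2, Bmp4, Grem1 and Tgfbr3 in each cell line. Bottom, the median log2 value of 16 epithelial and 18 fibroblast and smooth muscle markers in the same lines; AP 1, AKP 1 and AKP 8 are highest in the latter and in Tgfbr3.

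Genes known to respond to the pathway were compared with the same fit. Of 23 measured TGF-beta target genes, 1 rose in AKP and 0 fell, beside 0.792% and 1.1% of all genes. The median difference was -0.18, and 5 had an unadjusted p under 0.05, a limit that 16.5% of all genes passed. Hmga2, a chromatin protein gene induced by TGF-beta in epithelial cells, had levels of 11.24, 9.63 and 8.29 in the AP lines and 10.96, 13.08 and 14.02 for the lowest, median and highest AKP line. Only AKP 8 lay below AP 1, and the difference was 3.35 ± 0.60 (SE; limma adjusted p = 0.0137). Hmga2 lost the call without AP 3 (limma adjusted p = 0.0779) and with the probe set of largest variance (0.162), and passed in 25 of 28 alternatives. Postn, a matrix protein gene also counted among the fibroblast markers, had a difference of -7.71 ± 2.00 (limma adjusted p = 0.0676), and Ltbp2, a latent TGF-beta binding protein gene, one of -5.80 ± 1.69 (limma adjusted p = 0.102). Both were high in AKP 1, at 14.25 and 11.05, and highest of all lines in AP 1, at 15.84 and 12.79. Without AKP 1 both passed, with limma adjusted p of 0.00117 for Postn and 0.0239 for Ltbp2. Without AP 1 the differences were -5.97 and -4.67, and over all single left-out lines limma adjusted p reached 0.201 and 0.251. The authors' deposited table, whose Tgfbr3 mean matched the AKP lines without AKP 1 and AKP 8, lists Postn, Ltbp2, Col4a1, Skil and Hmga2. It gives differences of -8.91, -6.37, -2.08, 2.27 and 4.18, with step-up p of 0.0006 to 0.0456. With all lines Col4a1 and Skil differed here by -1.73 and 0.68 (limma adjusted p = 0.189 and 0.373). The AP means of Skil and Hmga2 are 5.69 and 8.15 in that table but 12.35 and 9.72 here. Their differences there and here thus do not come from the same values.

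Of 17 BMP target genes, among them the members Nog, Smad6 and Smad7, 0 passed limma in either direction. In this list 4 had an unadjusted p under 0.05 where 16.5% of all genes did, and the median difference was -0.19. The 3 with the lowest p, Dlx5, Gata4 and Hey1, lay at or below 2.78 in every AKP line, near the floor of the arrays, with differences of -0.25, -2.27 and -1.32. In AP 1 to AP 3, Gata4 lay at 1.90, 7.12 and 3.37 and Hey1 at 2.66, 3.28 and 5.88. Gata4 and Hey1 passed without AP 1, at -3.38 and -1.96, while Gata4 was -0.77 without AP 2 and Hey1 -0.35 without AP 3. Dlx5 passed without AP 2, but it lay at or below 2.98 in every line and cannot be told from background. Msx1, next in p, lay at 8.84, 10.36 and 8.10 in AP 1 to AP 3. In AKP its lowest, median and highest values were 4.03, 4.51 and 9.10, and the difference was -3.44 ± 1.17 (SE; limma adjusted p = 0.16). The Id genes are direct targets of BMP Smads. The level of Id2 was 12.10 in AP 1, 9.90 in AKP 1 and no lower than 13.98 in the remaining lines. Id1 was lowest in AKP 1, AP 1 and AKP 12, at 11.87, 12.57 and 12.73. In AKP 12, where Smad6 was lowest, Id3 lay at 10.92, Id4 at 3.73 and Bambi, a decoy receptor gene, at 3.54. Bambi was lower only in AKP 2, at 2.98. Id4 was also low in AP 2 at 3.36.

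Further genes of the pathway were read from the same fit. Limma called 0 of 17 other ligands, 0 of 10 other receptors and co-receptors, 0 of 22 extracellular regulators and 0 of 20 intracellular regulators, and 2, 1, 8 and 2 of them had an unadjusted p under 0.05, a limit that 16.5% of all genes passed. Their median differences were -0.03, 0.02, -0.34 and 0.16. Crim1, a transmembrane protein that binds BMPs, had 11.30, 11.12 and 13.44 in AP 1 to AP 3 and at most 10.88 in any AKP line, which differed on average by -1.58 ± 0.40 (SE; limma adjusted p = 0.0627). Bmp1, a protease that cleaves chordin and procollagen, differed by -2.14 ± 0.60 (SE; limma adjusted p = 0.0876), and Nedd4l, a ubiquitin ligase that acts on Smad2 and Smad3, by -1.40 ± 0.37 (SE; limma adjusted p = 0.0722). Crim1 did not overlap between the groups, whereas AKP 1 lay within the AP range of Nedd4l at 11.66, and AKP 1 and AKP 8 within that of Bmp1 at 9.73 and 9.93. Which of these genes passed varied with the lines and settings used. Crim1, Bmp1 and Gdf11 passed without AP 2, Nedd4l without AKP 1, Chrdl2 without AP 1, and Crim1, Nedd4l and Chrdl2 also without AP 1 and AKP 1 together. Without AP 3 the differences of Crim1, Chrdl2 and Gdf11 were -0.83, -0.44 and -0.42. With all lines kept, Nedd4l passed with the probe set of largest variance, at -3.29 (limma adjusted p = 0.0105), and with the mean over its probe sets, at -1.45 (limma adjusted p = 0.00356). The authors' deposited table lists Nedd4l with a difference of -3.42, between means of 8.77 in AP and 5.35 in AKP. The probe set used here had means of 11.55 in AP and 10.15 in AKP, so these differences do not come from the same values. The Tgfbr3 mean of that table matched the AKP lines without AKP 1 and AKP 8, so -3.42 may also rest on fewer lines. With all lines kept, Crim1 also passed with sex as a covariate and when only the genes brighter than the 60th percentile were tested, Chrdl2 with array weights and with sex as a covariate, and Bmp1 with the pair label as a covariate. Chrdl2 differed by -0.94 between levels of 2.67 and 1.72, on the floor of the arrays. The genes next in order were Gdf11, Inha and Nodal, with differences of -0.97, -1.63 and -0.30, Rgmb, Neo1 and Rgma, with 0.96, 0.82 and -0.82, and Ppm1a and Tab1, with 0.71 and -0.63.

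Marker lists of other cell types were read beside these results. Of 18 fibroblast and smooth muscle markers 2 fell in AKP, Col1a1 by 5.02 and Lum by 0.54, the latter between means on the floor, and the list's median difference was -2.42. Col1a1 passed in 10 of 27 and Lum in 21 of 26 alternatives. Lum lost the call without AP 3 (limma adjusted p = 0.0752) and without AP 1 and AKP 1 (limma adjusted p = 0.0523). With 1 line left out, limma gave Col1a1 adjusted p between 0.000296 (without AKP 1) and 0.137 (without AP 1), and passed it only without AP 2, AKP 1 or AKP 8. The list's median level spanned 5.78 to 12.87 in AP and 3.13 to 11.57 in AKP, a direction shared by Tgfb2, Inhbb and Tgfbr3. Tgfb2 was lower in AP 1, the line with the most of these markers, than in AP 2 and AP 3. Inhbb was highest in AKP 8 and AKP 10, where the list's median was 7.54 and 4.32. Col1a2, a fibrillar collagen gene, reached 15.49 in AP 1 and 12.60 in AKP 1 but no more than 4.72 elsewhere. Next widest of the list were Col3a1, Dcn and Postn. Col3a1 and Postn were highest in AP 1, at 14.98 and 15.84, and lay at 14.50 and 14.25 in AKP 1, their highest AKP line. Dcn went another way, at 7.77 in AP 1 and 14.65 in AKP 7, its highest line. Epithelial markers had 0 of 16 members called and medians of 2.91 to 7.60 in AP and 3.17 to 9.88 in AKP, and Krt8, Krt18, Cldn3 and Cldn4 ranged most, with AKP medians of 12.98, 15.15, 8.34 and 5.50. Haematopoietic and endothelial markers had 0 of 11 and 0 of 10 members called, and list medians of at most 4.91 in any line. Their widest-ranging genes were Cd68, Lyz2, Csf1r and Cd14, with differences of 3.74, -2.13, -1.78 and -0.60, and Flt1, Cdh5, Esam and Emcn, with 2.98, -2.30, -0.83 and 0.58. Csf1r passed with the probe set of largest variance, with the mean over its probe sets and without AP 2. Cd68 passed with the pair label as a covariate, Flt1 without AKP 1 and AKP 8, and Cdh5 with array weights and without AP 3. The authors' deposited table lists Csf1r, Flt1 and Col1a1, with differences of -5.53, 3.76 and -7.10. Their AP means there, 9.20, 4.42 and 9.87, differ from the 7.49, 5.59 and 9.59 here.

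Sex and the adenoma label were compared next. Between lines labelled female and male, with genotype as a covariate, limma called 0 of 32 members and 0 of 18193 genes, and at an unadjusted p under 0.05 there was 1 member, Smad1, where 3.16% of all genes passed. Its difference was -0.57 (female minus male). Without AP 3 and AKP 11, whose sex-linked transcripts go against their label, limma again called 0 members, and the unadjusted limit was passed by Smad1 and Tgfb1, beside 1.64% of all genes. A genotype effect that differs between the labelled sexes cannot be read from these lines, since AP 3 is the only AP line labelled female and its transcripts go against that label. Limma called that term in 1 member, Acvr1, and in 2.01% of all genes. The line labelled adenoma, AKP 6, lay below all other AKP lines in Inhbb (2.30), Bmp5 (3.18) and Bmp7 (2.49) and inside their range in the remaining members. Its gap to the next AKP line was small in these 3 genes, which lay at 2.49, 3.26 and 2.70 there, and 1 line allows no test.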

How the data were processed

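Affymetrix mouse arrays measured RNA of 15 cell lines, with 1 array each, per the labels. The table deposited by the authors holds log2 expression values per probe set; their summarization and scaling were not given in the sources used here, and the depth behind a value is unknown. The authors' deposited table of their own comparison holds, per the file headers, log2 means with p-values, ratios, fold changes and t scores. Of 45101 probe sets, 64 controls were left out, 34945 carried a single gene in the platform annotation, 932 several and 9160 none listed here, and each of 18193 genes was read by its brightest probe set. All 32 members matched RefSeq by Entrez identifier.

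Values were used as deposited. The two-sided test of limma 3.58.1 (R 4.3.3; eBayes after lmFit) compared AKP with AP over all lines without covariates, and female with male labels with genotype as a covariate, with Benjamini-Hochberg adjustment over all genes and a threshold of 0.05. The fit was tested on simulated data. The 3 AP lines limit the precision. Array medians ran from 3.91 to 4.17. Intervals of 95% come from limma.

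All members are named. Those called, or with a highest line of at least 8 and a range of at least 3, are given with values, as are from each pathway list the called genes and the 3 with the lowest p, and from each marker list the 4 with the widest range. Other named genes (the Id genes, Bambi, Msx1, Skil, Col4a1, Epcam, Xist, Eif2s3y, Eng, Ptprc, Pecam1, Col1a1 and Lum) were picked once their values were known. The members, lists and left-out line pairs were chosen with earlier results of these data known. The labels do not say that line numbers pair AP with AKP lines. Deviations of same-numbered lines correlated at 0.46, -0.04 and -0.06. The value of 0.46, for AP 1 with AKP 1, was the highest of any AP line with any AKP line. So few same-numbered lines cannot decide whether the numbers pair them. Alternatives covered scaling, the probe set rule, filters on dim genes, weights for arrays, the variance model, left-out lines, covariates and a replicate block. Leaving out AP 3 and AKP 11 from the sex comparison was chosen after seeing the data.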

Additional observations from a re-analysis of the deposited data

Results flagged for a closer look

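Among lines of the same labelled sex, a single line lay far from the others in 11 of 64 groups checked (32 members in 2 labelled sexes); chance alone puts about 1 in 20 groups past this limit, and the groups share lines, so the number is no test. AP 1 was the lowest male-labelled line in Bmp2 (3.71) and Fst (8.73) and the highest in Tgfbr2 (13.04), and AKP 10 the highest in Bmp5 (5.28). Among the female-labelled lines AP 3 was the highest in Tgfb2 (13.66) and the lowest in Acvr1 (7.93), and AKP 8 was the lowest in Acvr1b (6.38) and the highest in Nog (4.76). The groups mix AP and AKP lines, and the flags of AP 3 cannot be told apart from the genotype difference in those genes. AKP 1 was the lowest in Bmp4 (7.42), AKP 11 the highest in Smad5 (10.16) and AKP 7 the highest in Chrd (6.58). The genotype effect on Acvr1 differed between the labelled sexes by 2.97 on the log2 scale (female minus male). That value rests on AP 3, the only AP line labelled female, whose Eif2s3y level goes against its label, so it does not show an effect of sex.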

How the results depend on the processing

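The count of 0 called members became 1 (Tgfb2) with genes at or above the 40th or the 60th percentile, and 2 without AP 1 and AKP 1 (Tgfb2 and Acvr1) or without AKP 1 and AKP 8 (Tgfb2 and Tgfbr3). Leaving out 1 line gave 0 to 2 called members. The count of 345 genes was 191 at or above the 60th percentile, 153 with array weights and 728 without AKP 1 and AKP 8, and 177 (without AP 3) to 584 (without AP 2) when 1 line was left out, while leaving out AKP 8 gave 540, AKP 5 gave 224, AKP 11 gave 219 and AKP 6 gave 216. The replicate block, which uses only lines numbered alike in both groups, called 0 of 18193 genes, Hmga2 included (limma adjusted p = 0.411). By the labels those lines share only a number. Their deviations were the best correlated for AP 1 and AKP 1 but not for the other same-numbered lines. Centring each array on its median shifted the all-gene median difference from 0.01 to 0.12 and called 417 genes, 256 of them higher in AKP, against 144 of 345 as deposited, and 0 members. The count of members called between labelled sexes was 0 in every alternative run for it. Over the alternatives 17 of 32 members kept the sign of their difference and 15 changed it at least once, and no member that changed sign was called in any alternative. With no detection calls, levels near the floor limit Bmpr1b, Smad9, Nog, Chrd and Bmp5 in particular.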
